A study of Mus musculus with 1183 samples.

Results

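The colony stimulating factors are secreted proteins that control the making, survival and activation of macrophages, granulocytes and dendritic cells. The genes described here are 7 of the 18072 genes in a single-cell count table of the neonatal mouse lung, chosen by symbol: the ligands Csf1 and Csf2 and the receptor genes Csf1r, Csf2ra, Csf2rb, Csf2rb2 and Csf3r. All 7 passed the filter on low counts. The table holds 1183 immune cells from the distal lung of 1 female and 1 male mouse at postnatal day 7, both kept in hyperoxia, a raised oxygen level that injures the developing lung. The labels give no strain, oxygen level or length of exposure, and every group shares the same treatment. Cells from normal oxygen were not analysed here. A cell subtype is given for each cell (16 subtypes), and how the subtypes were assigned is not given in the sources used here, so these genes may have helped to set them. With 1 animal of each sex, sex and animal cannot be told apart, the animal is the replicate (n = 2), and cells are not replicates.

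Macrophage colony stimulating factor, the product of Csf1, binds the receptor tyrosine kinase encoded by Csf1r and keeps monocytes and most tissue macrophages alive. Granulocyte-macrophage colony stimulating factor (GM-CSF), the product of Csf2, is needed for alveolar macrophages to form around birth. Its receptor pairs the alpha chain of Csf2ra, which binds the factor, with the beta chain of Csf2rb, which signals through the kinase Jak2 and which the receptors for interleukin 3 and interleukin 5 share. Mice carry a near copy, Csf2rb2, whose protein serves the interleukin 3 receptor alone. Csf3r encodes the receptor of granulocyte colony stimulating factor, the main driver of neutrophil output.

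Csf2rb and Csf2rb2 are so alike that the sequences bear on how their reads can be told apart. Over 2628 aligned coding bases they were identical at 95.24%. Of all 75-base stretches of 1 transcript of each, 10.73% of those of Csf2rb also occurred in Csf2rb2, and 11.1% of those of Csf2rb2 in Csf2rb. The first 150 coding bases of each, from the GENCODE M21 transcripts, show how few positions separate them, with the 6 bases that differ in capitals.
Csf2rb: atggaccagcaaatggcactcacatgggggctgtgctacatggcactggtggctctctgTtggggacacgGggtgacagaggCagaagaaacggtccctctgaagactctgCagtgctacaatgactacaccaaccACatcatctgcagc
Csf2rb2: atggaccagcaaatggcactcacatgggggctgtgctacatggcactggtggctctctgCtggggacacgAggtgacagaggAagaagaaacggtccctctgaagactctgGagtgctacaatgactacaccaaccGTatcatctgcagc
The authors' counting could move reads between the pair, so the values of Csf2rb2 are uncertain where Csf2rb is high, as in basophils.

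The promoters of the 2 ligands and of Csf3r are shown because these 3 genes were the most restricted to single subtypes. Each runs from 250 bases before the transcript start to 50 after it, from RefSeq on the GRCm38.p6 build, and 5 of the 7 genes had an entry. Motif matches are in capitals. Csf1 lies at chr3:107760420-107760719 on the minus strand, Csf2 at chr11:54249850-54250149 on the minus strand and Csf3r at chr4:126024409-126024708 on the plus strand.
Csf1: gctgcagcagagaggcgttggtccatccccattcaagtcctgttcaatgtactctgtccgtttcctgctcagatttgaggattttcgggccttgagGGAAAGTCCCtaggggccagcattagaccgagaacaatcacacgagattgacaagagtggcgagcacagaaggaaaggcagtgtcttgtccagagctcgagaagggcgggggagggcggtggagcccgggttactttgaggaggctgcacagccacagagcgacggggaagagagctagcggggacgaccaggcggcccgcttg
Csf2: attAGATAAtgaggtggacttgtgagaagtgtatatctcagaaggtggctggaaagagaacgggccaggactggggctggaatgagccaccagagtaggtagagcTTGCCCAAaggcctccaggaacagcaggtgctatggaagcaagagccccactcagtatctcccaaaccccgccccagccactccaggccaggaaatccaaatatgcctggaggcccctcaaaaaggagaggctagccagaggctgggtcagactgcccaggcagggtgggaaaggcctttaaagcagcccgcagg
Csf3r: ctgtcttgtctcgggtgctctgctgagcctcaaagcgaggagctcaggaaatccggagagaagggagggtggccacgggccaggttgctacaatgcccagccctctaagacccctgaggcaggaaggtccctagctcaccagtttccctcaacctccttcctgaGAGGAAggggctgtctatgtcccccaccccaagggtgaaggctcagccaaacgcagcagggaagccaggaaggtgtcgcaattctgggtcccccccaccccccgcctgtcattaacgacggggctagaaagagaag
The motifs were searched on both strands. The Csf1 window held an NF-kB match, on the minus strand, which 0.4109% of 32851 promoters of the same length also held. The Csf2 window held a GATA match (AGATAA, in 11.18% of promoters) and a C/EBP match (TTGCNNAA, in 10.8%). The PU.1-type Ets match GAGGAA, in 28.28% of promoters, occurred 1 time in Csf3r and 2 times each in Csf2ra and Csf2rb2. None of the 5 windows held AP-1 (TGANTCA, 7.808%) or RUNX (TGTGGT, 16.76%), and no matches overlapped.

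The libraries used below are sums of raw reads over the cells of an animal and subtype, given as CPM, reads scaled to the total of the summed library. They held 6024429 to 235566546 reads, and single cells held 16753 to 7560179 reads with a median of 1100966. All 1183 cells except 10 came from the CD45 gate, which selects blood-derived cells. Subtype labels were checked against markers, and neutrophil markers were high in neutrophils of both animals, at summed levels of 91419 and 107544 CPM. All 4 markers were highest in their own kind for neutrophils, basophils, mast cells, B cells, NK cells, DC I, DC III, Mac III and Mac IV, and 3 of 4 for T cells. In this count the Mac subtypes were not compared with each other, nor the DC subtypes, nor mast cell with mast cell II. Mac I was left out. The count therefore does not check the labels within these kinds. The labels are less clear for IL cells, Mac V and DC II, with 2 of 4, and for Mac II and mast cell II, with 1 of 4. The mast cell list summed to less in mast cell II, at 311.3 and 463.8 CPM, than in basophils, at 743.7 and 496 CPM. The Mac II list summed to 3477 and 2795 CPM in Mac II and to 2047 and 3057 CPM in Mac V. Marker lists of other kinds of cell also summed high in places that touch a value below. The B cells of the male carried 2239 CPM of neutrophil markers and the DC I cells of the male 10782 CPM of epithelial markers. Mac IV carried 4943 and 8611 CPM of the platelet list, which was Pf4, Ppbp and Itga2b. Which gene of a list carried its sum is not given here. The part of these markers in the values of these subtypes was not tested. Each animal's values are given as female, then male.

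Basophils, the rarest granulocyte of blood, held most of the Csf1 message. Csf1 stood at 1108 CPM in the basophils of the female and 857 CPM in those of the male. Neutrophils followed at 104.2 and 146.2 CPM, and mast cells at 17.1 and 33.6 CPM. The animals of these 3 subtypes did not overlap with each other, so the order basophil, neutrophil, mast cell held in both. The remaining subtypes reached at most 20.4 CPM, in the DC III cells of the male, where 1 cell gave 53.3% of the reads, and overlapped with mast cells. DC III of the female had 0 reads. B cells, T cells, DC II, IL cells and NK cells lay at 0.0416 CPM or less in either animal.

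By cells, basophils also stood first, while neutrophils and mast cells kept no common order in the animals. After each cell was thinned to 100000 reads, a Csf1 read was found in 34 of 34 basophils of the female (100%, exact interval 89.7% to 100%) and 18 of 19 of the male (94.7%, 73.97% to 99.9%). In neutrophils the shares were 20% (11 of 55) and 26.9% (21 of 78), and in mast cells 17.9% (7 of 39) and 40% (8 of 20). Unthinned, a read was found in 100% and 94.7% of basophils, 21.4% and 29.5% of neutrophils and 23.1% and 45% of mast cells. As a sign of background, 0 of 39 B cells of the female and 0 of 25 of the male had a read, which allows up to 7.69% and 12%. Of the Csf1 signal summed over all sorted cells, basophils gave 80.8% and 57.4% and neutrophils 14.2% and 37.3%, shares that depend on how many cells of each subtype had been sorted. Over the 4 CD45 plates Csf1 ran from 534 to 1191 CPM in basophils and from 50.6 to 189.9 CPM in neutrophils, with no overlap.

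Within neutrophils Csf1 stood higher in the cells without Ngp in both animals, though the cells with Ngp were few. Of the cells split by Ngp, a granule gene of immature neutrophils, those with at least 10 CPM of Ngp had 0 and 6.77 CPM of Csf1, against 145.6 and 220.9 CPM in the others. By cell, 0 of 9 and 2 of 20 Ngp cells had at least 10 CPM of Csf1, against 11 of 47 and 19 of 58 others. Most cells without Ngp thus also lay under 10 CPM of Csf1. Csf3r differed the same way, at 347.2 and 391.6 CPM in the Ngp cells and 4932 and 2683 CPM in the others. This split was chosen with the data known and is a description.

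Csf2 was read almost solely in the cells labelled IL cell, a small class of lymphocytes. Gata3, among their listed markers, is the master factor of type 2 innate lymphoid cells. The T cell list also summed to 1433 and 652 CPM in IL cells, with 1 and 0 of 4 at 0. In T cells it summed to 4581 and 4605 CPM. In the 9 and 5 IL cells Csf2 stood at 761 and 241.1 CPM. Of all 13071 Csf2 reads, 99.66% fell in IL cells, and 5717 fell in 1 IL cell of the female. Among the other 1169 cells, 14 had any read, 1 had 10 or more (a T cell, 32 reads), and their summed level was 0.0317 CPM. T cells lay at 0.864 CPM and 0 CPM, and basophils, DC I, DC II, Mac V and NK cells had 0 reads in both animals.

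Not every IL cell held Csf2, and those that did varied over a wide range. In the 9 cells of the female Csf2 ran from 0 to 3103 CPM with a median of 198.8 CPM, and in the 5 of the male from 0 to 1630 CPM with a median of 69.1 CPM. A thinned read was found in 7 of 9 (77.8%, 39.99% to 97.2%) and 3 of 5 (60%, 14.7% to 94.7%). Of the 14 cells, 12 had at least 1000 CPM of Gata3, and 10 of those 12 had Csf2. Counts by this cut are a description. Of the 2 other cells, 1 of them with 2519 CPM of Il17a, 0 had Csf2. Il5, which encodes the growth factor of eosinophils, was read in 8 of the 12 Gata3 cells. Csf2 and Il5 occurred together in 7 of them, Csf2 alone in 3, Il5 alone in 1 and neither in 1. The cell with the most Csf2 had 351.2 CPM of Il5, and the cell with the most Il5, at 1002 CPM, had 97.7 CPM of Csf2.

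**Figure D1:**
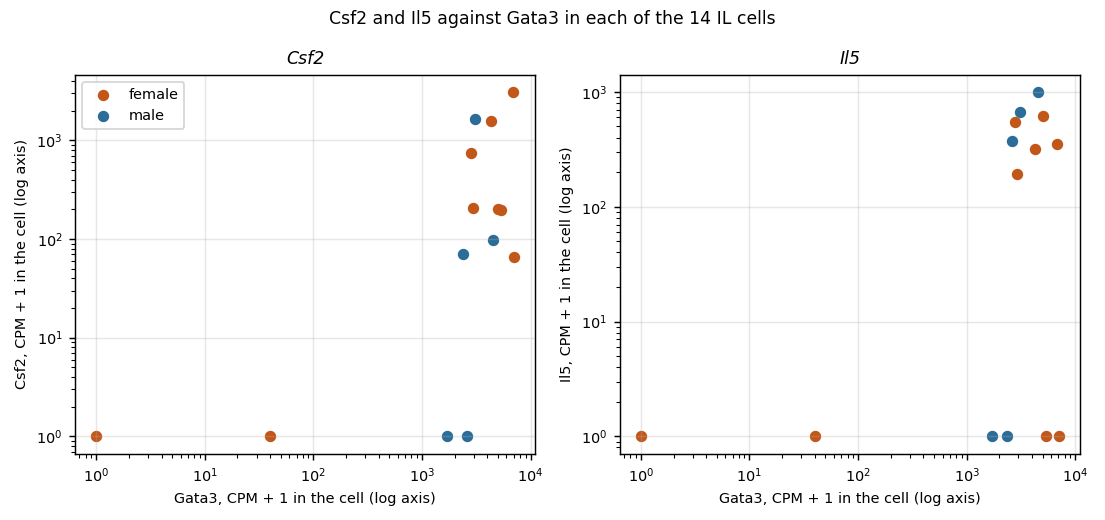
Each point is 1 of the 14 IL cells, with Gata3 on the horizontal axis and Csf2 (left) or Il5 (right) on the vertical axis, all as CPM + 1 on log axes. The 12 cells with at least 1000 CPM of Gata3 sit at the right, and all 10 cells with Csf2 are among them.

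**Figure D2:**
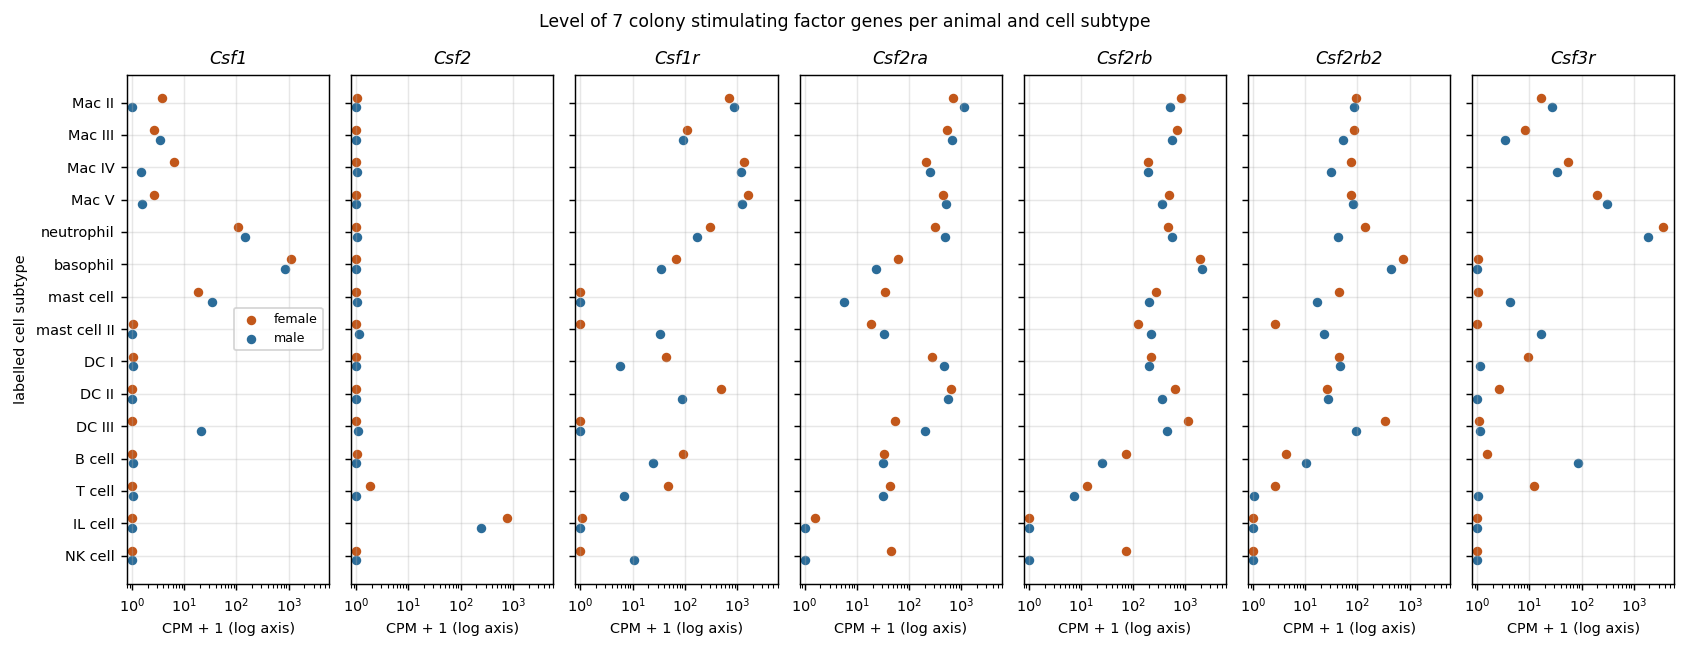
Points give the level of each gene in the summed cells of the female and the male, by labelled subtype, as CPM + 1 on a log axis. Csf1 peaks in basophils at 1108 and 857 CPM, Csf2 in IL cells at 761 and 241.1 CPM and Csf3r in neutrophils at 3629 and 1884 CPM, while Csf2ra and Csf2rb extend over most myeloid subtypes.

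Among receptors, Csf1r was highest in the monocyte-like Mac V and the C1q-positive Mac IV. It stood at 1643 and 1265 CPM in Mac V and 1391 and 1214 CPM in Mac IV, and the animals of these 2 subtypes overlapped. Mac II followed at 697 and 863 CPM and did not reach either. DC II lay at 490 and 86.1 CPM and neutrophils at 309.5 and 168.5 CPM, and they overlapped. Mac III, the alveolar-type macrophage with Pparg and Car4 among its markers, held 110 and 90.9 CPM, and mast cells and DC III held 0 reads in both animals. A Csf1r read was found in all Mac V and Mac II cells, in 62 of 63 and 79 of 79 Mac IV cells, in 71.3% and 55.3% of Mac III cells, and in 47.3% and 34.6% of neutrophils. Among mast cells 0 of 39 and 0 of 20 had one, which allows up to 7.69% and 15%. Some lymphocytes had one, 4 of 39 and 3 of 25 B cells and 3 of 26 and 2 of 20 T cells. B cells stood at 93.4 and 23.8 CPM of Csf1r and T cells at 46.2 and 5.91 CPM. In Mac V, cells with Ly6c2 and without Ace (markers of the 2 kinds of blood monocyte) had 819 and 656 CPM of Csf1r, against 2364 and 2386 CPM in cells with Ace and without Ly6c2.

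Csf3r was the most restricted receptor. Neutrophils held 3629 and 1884 CPM and gave 92.7% and 90.9% of its signal. Mac V followed at 199.5 and 302.9 CPM and Mac IV at 54.7 and 32.4 CPM, and none of these 3 subtypes overlapped. It was read in 54 of 55 and 72 of 78 neutrophils, in 62.1% and 75% of Mac V cells and in 0 of 34 and 0 of 19 basophils, which allows up to 8.82% and 15.8%. B cells of the male stood at 85.4 CPM, of which 97.6% came from 1 cell, beside the neutrophil markers given above, whose part was not tested.

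The alpha chain of the GM-CSF receptor, Csf2ra, was spread over macrophages, dendritic cells and neutrophils. It was highest in Mac II, at 683 and 1143 CPM. Mac III held 541 and 667 CPM, DC II 628 and 560 CPM, Mac V 451 and 519 CPM, neutrophils 312.1 and 486 CPM, DC I 270.1 and 459 CPM and Mac IV 212.5 and 247.9 CPM. Mac III overlapped with DC II, and Mac V with neutrophils and those with DC I, while Mac II lay above and Mac IV below all the others named so far. DC III lay lower still, at 52.9 and 199.8 CPM. B and T cells held 32.2 and 30.96 CPM and 42.5 and 31.2 CPM, and IL cells 0.552 and 0 CPM. Mac III gave 51.2% and 52.8% of the Csf2ra signal.

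The shared beta chain, Csf2rb, was highest in basophils, at 1919 and 2086 CPM, with no overlap with any other subtype. DC III held 1135 and 442 CPM, Mac II 820 and 516 CPM, Mac III 701 and 557 CPM, DC II 633 and 348.03 CPM, neutrophils 466 and 557 CPM and Mac V 492 and 362.9 CPM, all overlapping with DC III. Mast cells held 270.9 and 197.8 CPM and Mac IV 192.8 and 193.03 CPM. IL cells had 0 reads. Mac III gave 39.3% and 43.05% of the Csf2rb signal and basophils 20.2% and 16.1%. The near copy Csf2rb2 also peaked in basophils, at 754 and 445 CPM, followed by DC III at 340.8 and 91.8 CPM. The levels of Csf2rb and Csf2rb2 followed each other over 15 subtypes (Pearson r of log2(CPM + 1) 0.94, a description). Reads of these near-identical genes may be shared between them, which was not measured.

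Per kilobase of exon, the chains could be set against each other within a subtype. Mac III held 290.96 and 358.8 CPM per kilobase of Csf2ra, 134.1 and 106.5 of Csf2rb and 22.1 and 18.2 of Csf1r. In Mac IV Csf1r led, with 279.1 and 243.6 CPM per kilobase, against 114.2 and 133.3 of Csf2ra and 36.9 and 36.9 of Csf2rb. Basophils reversed the chains of the GM-CSF receptor, with 367.03 and 398.9 CPM per kilobase of Csf2rb and 33.2 and 11.9 of Csf2ra. Neutrophils held 1035 and 537 CPM per kilobase of Csf3r.

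**Figure D3:**
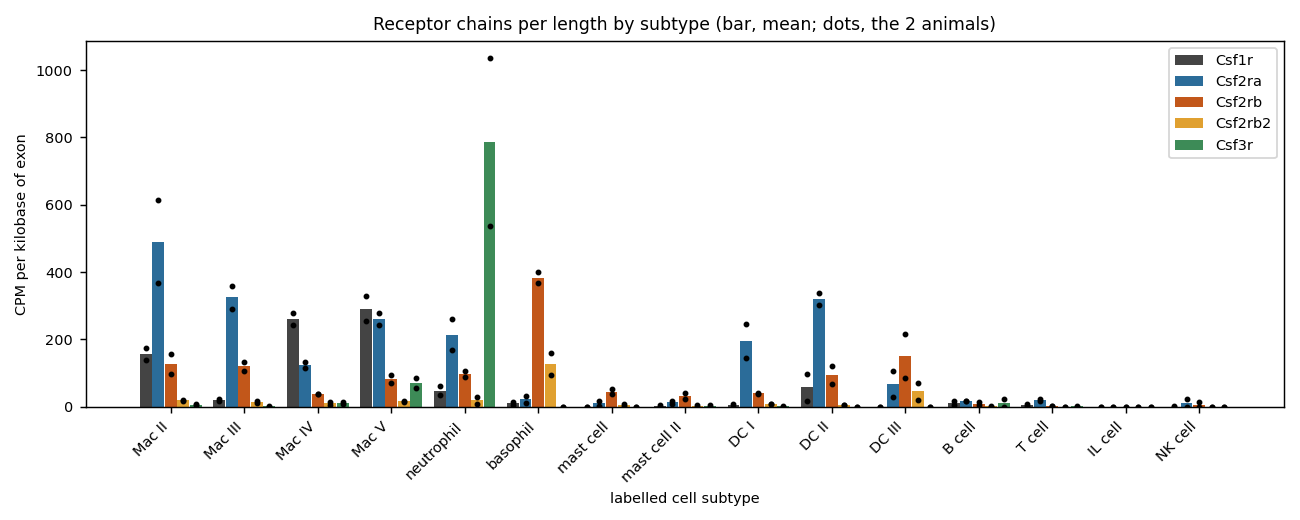
Bars give the mean of the 2 animals and dots each animal, as CPM per kilobase of exon, for the 5 receptor genes in 15 subtypes. Csf3r stands highest in neutrophils, Csf2rb in basophils, and Csf1r and Csf2ra lead in different macrophage subtypes.

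Whether both chains of a receptor were read in the same cell was counted after thinning. Csf2ra and Csf2rb occurred together in 27 of 27 and 20 of 20 Mac II cells and in 98.34% and 98.56% of Mac III cells. The shares were 63.5% and 53.2% in Mac IV, 81.8% and 59.1% in Mac V and 41.8% and 46.2% in neutrophils. Every basophil had Csf2rb, and 7 of 34 and 4 of 19 also had Csf2ra. Il3ra, the alpha chain of the interleukin 3 receptor, was read beside Csf2rb in 20 of 34 and 11 of 19 basophils and in 23 of 39 and 7 of 20 mast cells. Il5ra beside Csf2rb was read in 0 of 34 and 0 of 19 basophils.

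Ligands and receptors were then counted in the same cells. Csf2 and Csf2rb occurred together in 0 cells of any subtype. Csf1 and Csf1r occurred together in 4 of 34 and 2 of 19 basophils and in 5 of 55 and 8 of 78 neutrophils. In basophils the Csf1r reads came from few cells, with 58.97% and 64.8% of them from 1 cell. Csf1 and Csf2rb shared 34 of 34 and 18 of 19 basophils. Csf1r and Csf3r shared 62.1% and 75% of Mac V cells and 47.3% and 33.3% of neutrophils.

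**Figure D4:**
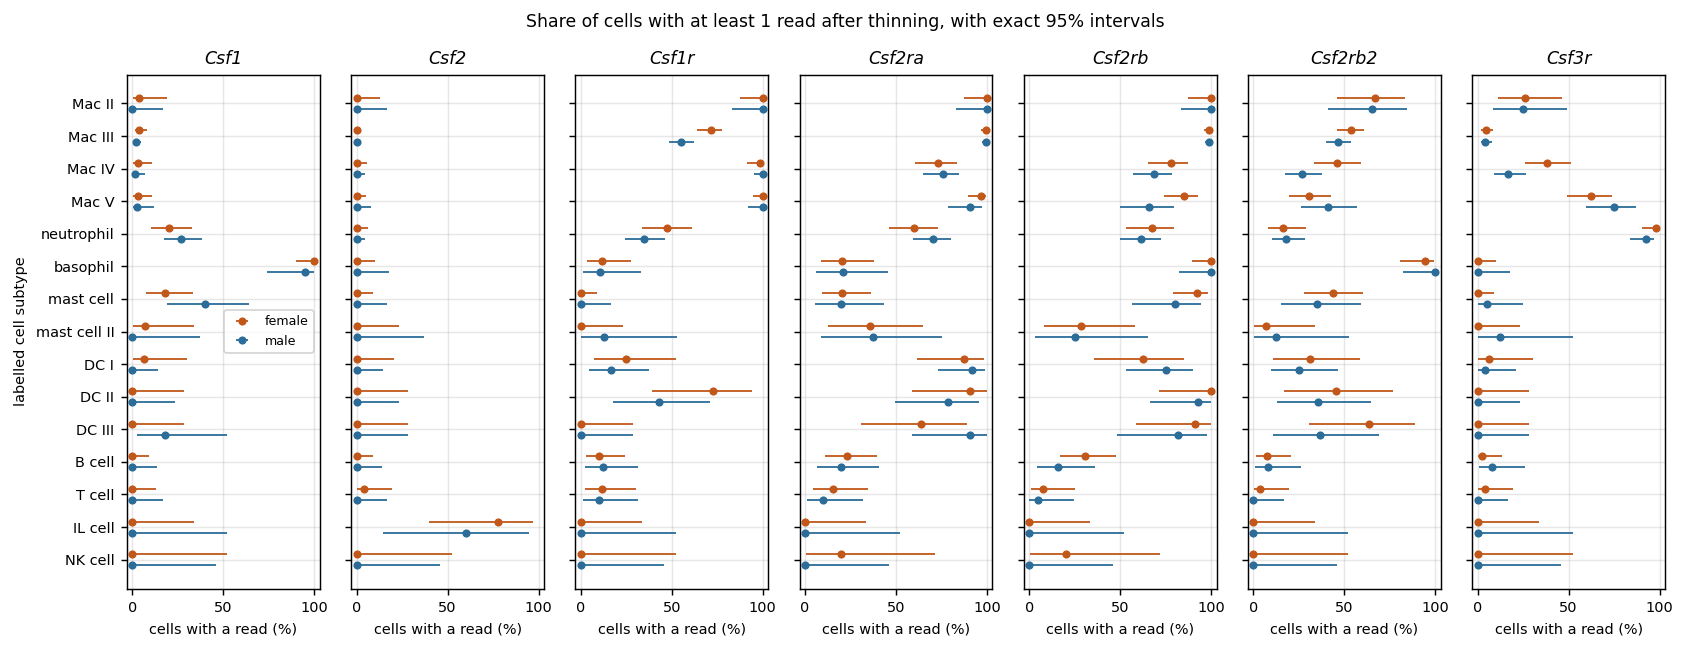
Points give the share of cells with at least 1 read after thinning to 100000 reads, and lines the exact 95% interval, by subtype and animal; the intervals cover counting error only. Csf1 is read in nearly all basophils, Csf2 in most IL cells, and Csf2ra and Csf2rb in nearly all Mac II and Mac III cells.

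**Figure D5:**
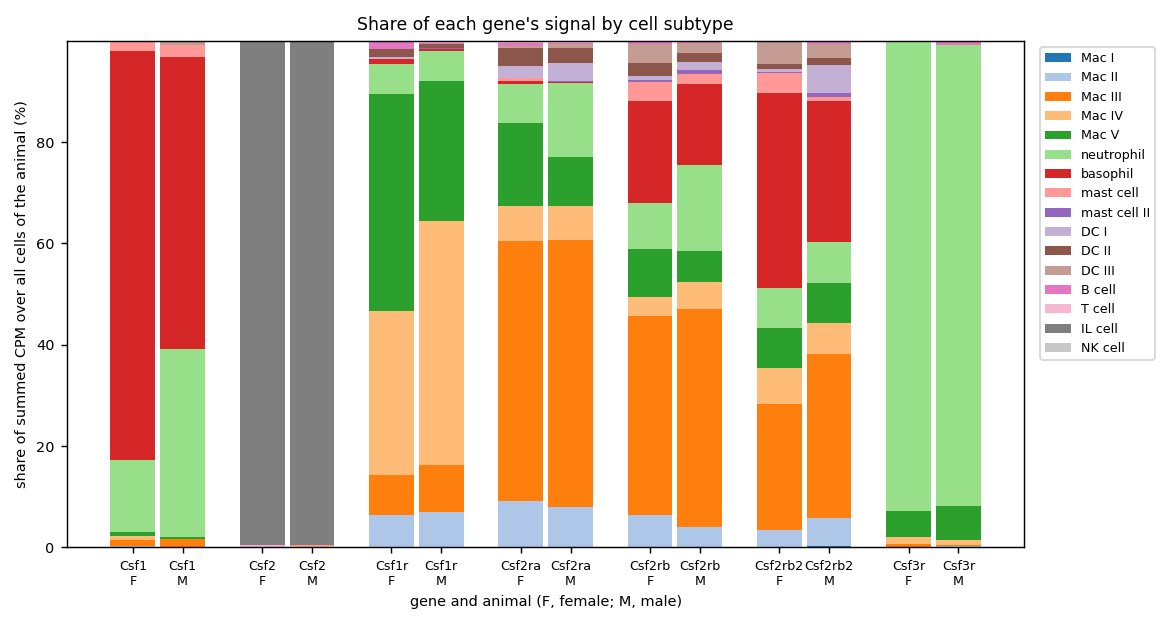
Each bar splits the summed CPM of a gene over all cells of an animal by subtype, in percent. Basophils and neutrophils hold most of Csf1, IL cells 99.6% and 99.5% of Csf2 and neutrophils 92.7% and 90.9% of Csf3r.

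Differences across 15 subtypes, those with 5 or more cells from both mice, were tested with edgeR's quasi-likelihood test on the summed counts (adjusted p by Benjamini-Hochberg over 15600 genes, called under 0.05). All 7 genes differed across subtypes, beside 34.3% of all genes tested. The adjusted p was 2.23e-05 for Csf2, 2.68e-05 for Csf1, 6.18e-05 for Csf2rb2, 0.000276 for Csf2rb, 0.000618 for Csf1r, 0.000641 for Csf3r and 0.0013 for Csf2ra. All 7 calls were kept in 8 alternative fits and in 20 fits that each left out a library.

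Between pairs of subtypes few genes of any kind were called, with 2 animals a group and a common biological coefficient of variation of 1.15. Between Mac III and Mac IV, edgeR called 0 of the 7 genes, beside 0.263% of all genes. Of the 7, 0 had an unadjusted p under 0.05. DESeq2 called 0 of them, beside 491 of 15600 genes. Csf1r lay lower in Mac III in both animals (log2 fold change -3.65 ± 1.88 SE, adjusted p = 0.671, edgeR), and Csf2rb (1.75 ± 1.17, adjusted p = 0.85) and Csf2ra (1.44 ± 1.28, adjusted p = 1) higher. The animals of the 2 subtypes did not overlap for 4 of 7 genes, Csf1r, Csf3r, Csf2ra and Csf2rb, beside 58.3% of all genes. An edgeR fit on these 2 subtypes alone called those 4, beside 12% of all genes.

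Between Mac III and Mac V, edgeR called 0 genes, beside 0.442% of all genes, and 1 had an unadjusted p under 0.05 (Csf3r). DESeq2 called 0, beside 904 of 15600 genes. Csf1r (log2 fold change -3.91 ± 1.90 SE, adjusted p = 0.54) and Csf3r (-5.73 ± 2.66, adjusted p = 0.519) lay lower in Mac III in both animals. The animals did not overlap for 5 of 7 genes, these 2 with Csf2ra, Csf2rb and Csf2 (4 reads in all), beside 57.8% of all genes. An edgeR fit on these 2 subtypes alone called Csf1r and Csf3r, beside 9.23% of all genes.

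Between neutrophils and Mac V, edgeR called 0 genes, beside 0.404% of all genes, and 1 had an unadjusted p under 0.05, Csf1, which DESeq2 called, beside 8.87%. Csf1 lay higher in neutrophils (log2 fold change 7.19 ± 2.18 SE, adjusted p = 0.235), as did Csf3r (3.91 ± 2.44, adjusted p = 0.534), and Csf1r lower (-2.16 ± 1.76, adjusted p = 0.681). The animals did not overlap for these 3 genes, beside 47.2% of all genes. An edgeR fit on these 2 subtypes alone called Csf1 and Csf3r, beside 0.846% of all genes.

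Between basophils and mast cells 1 gene was called, Csf1r, higher in basophils, beside 1.71% of all genes, or 0.724% in that direction. It stood at 66.8 and 34.4 CPM in basophils and had 0 reads in mast cells, at least 1715-fold higher against 3 counts over the mast cells (adjusted p = 0.0279, edgeR), and most of the basophil reads came from single cells, as given above. In Csf1r the basophils overlapped with the B cells and T cells, whose levels are given above. Some marker lists of subtypes high in Csf1r moved with the Csf1r difference and others did not. The Mac V list summed to 1440 and 2200 CPM in basophils, with 2 of 4 at 0 in each animal, against 103.3 and 167.2 CPM in mast cells. The Mac II list summed to 1265 and 859 CPM, with 1 and 2 of 4 at 0, against 0.0324 and 0.290 CPM. The neutrophil list summed to 32.8 and 7.73 CPM against 0.0485 and 0.0363 CPM. The Mac IV list lay at 0.0405 CPM or less in basophils. The DC II list lay at 0.0202 and 0 CPM in basophils and 0.0485 and 0.290 CPM in mast cells. The part of these markers in the result was not tested. Csf2rb2 (log2 fold change 4.54 ± 1.33 SE, adjusted p = 0.0952), Csf1 (5.47 ± 2.01, adjusted p = 0.183) and Csf2rb (3.30 ± 1.24, adjusted p = 0.188) were higher in both basophil libraries without being called. The animals did not overlap for these 4 genes, beside 41.1% of all genes. The 4 were called by an edgeR fit on the 2 subtypes alone, beside 2.62% of all genes, and by DESeq2, beside 15.6%. A fit without the NK cell libraries, chosen after seeing the data, called Csf1r and Csf2rb, beside 2.53%. A fit on the cells of the 1 batch code in the cell titles that both animals share gave 0 calls, beside 0.641%. The Csf1r call was also lost on leaving out any 1 of the 4 libraries, the female or male basophils or mast cells. Such a fit leaves 1 animal in a group.

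Between DC II and DC I, edgeR called 0 genes, beside 0.244% of all genes, 0 had an unadjusted p under 0.05, and DESeq2 called 1 (Csf1, at 0.0386 CPM or less), beside 7.06%. The animals did not overlap for 5 of 7 genes, beside 29.9%. Csf1 is among them with only 2 reads in DC I and 0 in DC II. Csf1r was 490 and 86.1 CPM in DC II and 42.4 and 4.70 CPM in DC I (log2 fold change 3.54 ± 1.87 SE, adjusted p = 0.621, edgeR).

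Between IL cells and T cells, 2 genes were lower in IL cells, Csf2rb (adjusted p = 0.0208, edgeR) and Csf2ra (log2 fold change -7.04 ± 1.69 SE, adjusted p = 0.0437), beside 1.13% of all genes, or 0.942% in that direction. Csf2rb had 12.1 and 6.20 CPM in T cells and 0 reads in IL cells, at least 74.3-fold higher in T cells against 3 counts over the IL cells. These T cell levels came from few cells, as Csf2ra was read in 4 of 26 and 2 of 20 and Csf2rb in 2 of 26 and 1 of 20. Marker lists of the subtypes that express these receptors moved both ways between the 2 subtypes. The DC III markers summed to 2482 and 1798 CPM in T cells, with 3 and 2 of 4 at 0, and had 0 reads in IL cells. The Mac V markers summed to 94.5 and 282.03 CPM in T cells and 38.9 and 0.121 CPM in IL cells. The Mac II markers were lower in T cells, at 97.2 and 28.1 CPM against 341.2 and 329.5 CPM, and the Mac IV markers lay at 0.027 CPM or less in both. Mac III markers were also lower in T cells, at 25.1 and 11.8 CPM against 57.6 and 35.9 CPM. The part of these markers in the result was not tested. Csf2 stood higher in IL cells (log2 fold change 10.004 ± 2.58 SE) and was not called (adjusted p = 0.0801). It was called only without the NK cell libraries, among 3 genes and beside 1.77% of all genes. The animals did not overlap for 6 of 7 genes, beside 34.9% of all genes. Of these genes, Csf2rb2 and Csf3r stood at only 0.0416 CPM in the T cells of the male.

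The calls between IL cells and T cells depended on the fit. With the animal as a block 1 gene was called, Csf2rb, beside 0.949% of all genes, and in the cells of the shared batch code Csf2ra, beside 0.132%. The fit on the 2 subtypes alone called 0, beside 0.423%, and DESeq2 called 6, all but Csf2 and beside 14.1%. Csf1 is among these 6 with only 1 read in T cells and 0 in IL cells. Leaving out a library of these subtypes left 1 animal in that group. The Csf2ra call was then lost each time, and the Csf2rb call was lost except without the male T cells.

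Other genes of these pathways came from a list of 42 ligands, receptors, signalling and feedback genes and transcription factors, chosen with earlier results known, of which 40 were tested and 28 differed across subtypes, beside 34.3% of all tested genes. By group, 2 of 4 other ligands tested, 3 of 4 other receptors, 7 of 13 signalling genes, 5 of 7 feedback genes and 11 of 12 transcription factors were called. Il5 was highest in IL cells, at 217.3 and 475.8 CPM, and Flt3l, which drives dendritic cells, at 211.2 and 160.5 CPM. The ligands Csf3 and Il34 were scarce: Csf3 had 11 reads in 5 cells and Il34, the other ligand of Csf1r, was read in 5 cells. Flt3l was not called across subtypes (adjusted p = 0.0901, edgeR). Il3ra, not called either (adjusted p = 0.127), stood highest in basophils, at 82.9 and 118.2 CPM, and Kit, the stem cell factor receptor, in mast cells, at 1389 and 786 CPM. Against mast cells, basophils held more Jak2 (4.47 ± 0.85, adjusted p = 0.00701) and Pim1, a kinase that these receptors induce (4.04 ± 0.76, adjusted p = 0.00657), and less Kit (-12.10 ± 3.03, adjusted p = 0.0477). Against T cells, IL cells held more Il5 (adjusted p = 0.0479) and Socs2 (5.61 ± 1.37, adjusted p = 0.0476) and less Spi1 and Tyrobp.

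The genes most like each member over the 15 subtypes were taken from 11103 candidates by the Pearson r of log2(CPM + 1), as a description. For Csf2 they were Stab2 (0.9989), Il5 (0.9988) and Fam83a (0.9987), all read in the same IL cells' libraries. Outside IL cells the highest mean of Csf2 was 0.432 CPM, in T cells. Its r therefore rests on the IL cells alone and does not rank genes by likeness. For Csf3r they were Trem3 (0.9687), Vnn3 (0.9601) and Thbs1 (0.9565). For Csf1r they were Clec4a2 (0.9348), Igsf6 (0.9330) and Slc43a2 (0.9215), and for Csf1 Chst13 (0.9003), Far2 (0.9001) and Tcp11 (0.8621). Csf2ra lay nearest to Dync1h1 (0.9188), Diaph2 (0.9155) and App (0.9114). Csf2rb lay nearest to Rufy3 (0.9518), Csf2rb2 (0.9381) and Spi1 (0.9307), the gene of PU.1, and Csf2rb2 to Csf2rb (0.9381), Rufy3 (0.9072) and Il15 (0.8844).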

How the data were processed

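Plate-based single-cell RNA-seq with Tn5 transposase was made from sorted cells of the distal lung. The authors deposited raw read counts per gene and cell, with no molecular identifiers named. The submitters' processing notes name STAR 2.5.2b, HTSeq 0.10 and GRCh38, a human build name, so no coordinates were taken from the data; RefSeq promoters (GRCm38.p6) and GENCODE M21 transcripts were used for sequences and lengths only. Columns were matched to samples by title. Counts were summed per animal and subtype (30 libraries; Mac I, with 1 cell, was left out of tests) and tested with edgeR 4.0.16 in R 4.3.3 (TMM, filterByExpr, 1 coefficient per subtype, Benjamini-Hochberg); SE is the log2 fold change over the square root of F. The test was also run on simulated counts with known fold changes for Mac III against Mac IV, and the outcome is not reported here. CPM used the summed library total. Shares used cells thinned to 100000 reads, leaving out 5 cells with fewer, at most 1 in any subtype of an animal, with exact Clopper-Pearson intervals at 95%; beside 0 cells stands the share that 3 cells would make. Both cover counting error only, and reads without identifiers are not independent molecules. No doublet caller was run. Alternatives were DESeq2 1.42.0, RLE factors, no filter, the animal as a block, the batch code shared by both animals (885 cells), only the 2 subtypes compared, each cell scaled to the same total and each library left out. The batch code was taken from the cell titles. Fits on the CD45 gate and without NK cells were added after seeing the data. The same 2 animals gave every subtype, which is the source of the pairing; over 105 pairs of subtypes their deviations correlated with a median r of 0.0284. The genes, lists, comparisons and alternatives were chosen with earlier results of these data known. Genes named as alike are the 3 with the highest r among genes with at least 20 CPM in their highest subtype; pathway genes outside ligands and receptors are named where called in a pairwise comparison in which a member is called, and 1 such gene is not reported here.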

Additional observations from a re-analysis of the deposited data

Results flagged for a closer look

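Csf1 in Mac III against Mac IV went in opposite directions in the animals. The log2 difference on the log2(CPM + 1) scale was -1.27 in the female, from 1.63 and 5.33 CPM, and 1.26 in the male, from 2.49 and 0.458 CPM. All 4 levels are low, 52.5% of the Mac IV reads of the female came from 1 cell, and the difference between the animals was not tested.

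The single Mac I cell, from the male, entered no test. It held Csf1r at 339.3 CPM, Csf2ra at 64.7 CPM, Csf2rb at 413 CPM and Csf2rb2 at 119.3 CPM, all above the level that 3 reads would give in it, 1.23 CPM. Csf1, Csf2 and Csf3r had 0 reads there.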

How the results depend on the processing

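With 2 animals a group, the pairwise counts moved with the model, and the cause was not tested. With only the 2 subtypes in the fit, 4 genes were called for Mac III against Mac IV, 2 for Mac III against Mac V, 2 for neutrophil against Mac V, 4 for basophil against mast cell and 0 for IL cell against T cell. In the same order, 12%, 9.23%, 0.846%, 2.62% and 0.423% of all genes were called. DESeq2 called 1 for neutrophil against Mac V, 4 for basophil against mast cell, 1 for DC II against DC I (Csf1, at 0.0386 CPM or less) and 6 for IL cell against T cell. These 6 include Csf1, with 1 read in T cells and 0 in IL cells. The DESeq2 shares of all genes called were 8.87%, 15.6%, 7.06% and 14.1%, in the same order. The cells of the shared batch code gave 0 for basophil against mast cell, beside 0.641% of all genes. They gave 1 for IL cell against T cell, beside 0.132%. Without the NK cell libraries basophil against mast cell had 2, beside 2.53%. The replicate block of the animal gave 1 for IL cell against T cell, beside 0.949%, and changed no other count. Leaving out 1 library, which leaves 1 animal in that group, lost the call for basophil against mast cell each time. For IL cell against T cell only the Csf2rb call was ever kept. For the test across subtypes only the 20 libraries of the compared subtypes were left out in turn, and the other 10 were not run.

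Shares of cells are means of the 2 animals. At 5 thinned reads they were 92.96% for Csf1 in basophils, 97.78%, 93.56% and 48.43% for Csf1r in Mac IV, Mac V and Mac III, 98.17% for Csf2ra and 96.18% for Csf2rb in Mac III, 11.15% for Csf2ra and 80.96% for Csf2rb2 in basophils and 57.58% for Csf3r in Mac V. Unthinned, with 1 read, they were 76.51% for Csf1r, 99.73% for Csf2ra and 99.45% for Csf2rb in Mac III and 23.76% for Csf2ra in basophils. At 10 CPM they were 99.73% for Csf2ra and 99.21% for Csf2rb in Mac III, and 14.09% for Csf2ra and 91.8% for Csf2rb2 in basophils. In the cells of the shared batch code they were 99.76% for Csf2ra in Mac III and 14.87% for Csf2ra in basophils. From raw reads, IL cells gave 99.61% of Csf2, Mac III 50.09% of Csf2ra and neutrophils 83.91% of Csf3r. Within the shared batch code IL cells gave 99.48% of Csf2 and Mac III 48.95% of Csf2ra and 38.36% of Csf2rb. Cell number limits the shares of small classes: 0 of 5 IL cells of the male allows up to 60%.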
